A study of Homo sapiens with 15 samples.

Results

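The set described here holds nuclear genes that encode subunits of the mitochondrial respiratory chain and of ATP synthase, measured by mRNA sequencing in 12Z cells, an immortalized line of human endometriotic epithelial cells. Members were taken by symbol, with earlier results of these data known, as the protein-coding genes named NDUF A, B, C, S or V subunits, the SDH subunits A to D, UQCR genes, CYC1, COX4 to COX8 and the ATP5F, ATP5M and ATP5P genes, without assembly factors. The rule matched 89 genes, of which 83 averaged 1 count or more over the libraries and were kept, out of 23184 genes that passed this filter. They comprise 36 genes of complex I, 4 of complex II, 10 of complex III, 14 of complex IV and 19 of complex V. The complex V genes include the readthrough ATP5MF-PTCD1. Genes whose symbols the rule does not match, such as NDUFAB1, are not in the set. The gene just inside the filter was ATP5MGL, with a mean of 1.2 counts, and the one just outside was COX4I2, with 0.2. The other 5 genes that were left out, COX6A2, COX7A1, COX7B2, COX8C and the readthrough NDUFC2-KCTD14, had no count in any library.

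Complexes I to IV sit in the inner mitochondrial membrane and pass electrons to oxygen, with complexes I, III and IV pumping protons as they do so, and complex V uses the proton gradient to make ATP. All subunits of complex II and most subunits of the other complexes are encoded in the nucleus and imported, while a few core subunits of complexes I, III, IV and V are encoded by mitochondrial DNA. The nuclear genes are known targets of the transcription factors NRF1, GABPA and YY1.

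The study asked how insulin and the PIK3CA H1047R substitution, which activates a catalytic subunit of phosphatidylinositol 3-kinase, act on endometrial cells after knockdown of viperin, the product of the interferon-induced gene RSAD2. The 15 libraries form 5 groups of 3. Of these, 4 groups received siRNAs against RSAD2 (siRSAD2) and then carried PIK3CA H1047R with insulin, PIK3CA H1047R with vehicle, empty vector with insulin or empty vector with vehicle. The fifth received non-targeting siRNA (siNT), empty vector and vehicle. In every group siRNA pools were transfected first and pBabe plasmids 24 hours later, both transiently, and cells were then serum-starved before 100 nM insulin or vehicle, so serum starvation and a double transfection are common to all groups. None of these groups combines siNT with H1047R or with insulin, and all values come from 1 cell line. The study also describes insulin and H1047R in cells without RSAD2 knockdown, which are not among these libraries. The methods describe 3 independent experiments per condition.

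Gene counts totalled 16.1 to 39.7 M per library. Levels are given as CPM, counts per M after scaling each library by the TMM factor of edgeR, and changes as log2 fold changes with their standard error (SE). A gene is said to have risen or fallen where the quasi-likelihood F test of edgeR, adjusted by the Benjamini-Hochberg method over all 23184 genes, passed 0.05. RSAD2 was at 0.691, 0.0768 and 0.208 CPM in siRSAD2 cells with empty vector and vehicle, against 3.003, 3.16 and 3.69 CPM in siNT cells, a log2 fold change of -3.29 ± 0.42. The knockdown was not equally deep in all siRSAD2 groups, since RSAD2 stood at 0.823, 0.787 and 0.900 CPM with H1047R and insulin, 0.624, 1.41 and 0.659 CPM with H1047R and vehicle and 0.447, 0.129 and 0.417 CPM with empty vector and insulin. Averaged over both treatments, RSAD2 was higher with H1047R than with empty vector by 1.43 ± 0.34 (edgeR adjusted p = 0.0165), though every siRSAD2 library stayed below every siNT library. PIK3CA was higher with H1047R by 1.25 ± 0.05 with vehicle and by 1.04 ± 0.05 with insulin. Of the 9 epithelial markers EPCAM and CDH1 stayed under 1 CPM in every library, while the summed level of all 9 was 1769 to 2304 CPM and that of 9 stromal markers 6136 to 7721 CPM. The endothelial markers summed to 7.0 to 12.3 CPM and the immune markers to 4.0 to 12.2 CPM. The share of counts on the forward strand, the strand opposite to the one used for counting, was 6.11 to 6.50% in all 6 H1047R libraries and 6.17% in siRSAD2 empty-vector insulin library 3, against 5.77 to 5.89% in the other 8 libraries.

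Subunit levels were first compared within each complex per unit of transcript length, as TPM over the canonical transcript averaged over all 15 libraries. The 17 members that share more than 10% of their canonical exon bases with another gene on the same strand were left out. All shares of exon bases given below also refer to the canonical transcript. Median levels were 184 TPM for complex I, 193 TPM for complex II, 148 TPM for complex III, 258 TPM for complex IV and 222 TPM for complex V. With merged exon lengths, the measure planned first, these medians were 67.8, 174, 149, 171 and 178 TPM, so levels between genes depend on the transcript length taken. The highest gene of complex V was ATP5F1B, the catalytic beta subunit of ATP synthase, at 853 TPM, and that of complex I was NDUFS5, at 776 TPM. With merged lengths both still led their complexes, at 1109 and 1158 TPM, with NDUFS5 then above ATP5F1B. COX6B1 of complex IV, at 642 TPM, and UQCRH, the hinge protein of complex III, at 475 TPM, led their complexes under either length, with 379 and 315 TPM by merged length. NDUFS1, the largest iron-sulfur subunit of complex I, was at 16.6 TPM over its long canonical transcript and at 26.3 TPM by merged length, where it was no longer the lowest. These cells used 1 isoform of most paired subunits. COX4I1 was at 482 TPM (126 TPM by merged length) while COX4I2, the isoform of hypoxic lung, was not kept. COX7A2 stood at 630 TPM (250.3 TPM by merged length) and the supercomplex factor COX7A2L at 121 TPM, whereas the muscle isoform COX7A1 had no count. COX6B1 exceeded COX6B2, the testis isoform, at 2.8 TPM, a gene that itself shares 29.9% of its exon bases. NDUFA4, a subunit of complex IV in spite of its name, was at 148 TPM, and its hypoxia-induced relative NDUFA4L2 was at 2.5 TPM. Of the 3 genes that encode the same mature c subunit of the ATP synthase rotor, ATP5MC2 was at 429 TPM, ATP5MC1 at 126 TPM and ATP5MC3 at 116 TPM. By merged length their order turned, with ATP5MC3 at 128 TPM, ATP5MC2 at 115 TPM and ATP5MC1 at 51.4 TPM. UQCRHL, an intronless copy of UQCRH, was at 29.7 TPM (6.23 TPM by merged length), and reads of such near-identical copies may be divided between them or discarded as multimapping. COX6A1 and COX8A, whose muscle or testis counterparts COX6A2 and COX8C had no count, share exon bases and are not placed on this scale. COX7B was at 125 TPM and COX7B2 had no count.

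The comparison of siRSAD2 with siNT, both with empty vector and vehicle, asks how these subunits differ under siRNAs against RSAD2. The siRNAs were used as a single pool, so loss of RSAD2 and effects of the pool on other genes cannot be told apart. The groups also share no replicate number, and a difference between sets of experiments cannot be told apart from that of the siRNAs. Subunits of all 5 complexes were lower with siRSAD2 and none was higher. Of 83 members 26 fell, beside 9.72% of all genes that fell, and 0 rose, beside 9.82% of all genes that rose. Among the 9593 genes with a mean of at least 10 CPM, where most members lie, 20.7% fell, against 31.3% of the members. A further 13 members had an unadjusted p under 0.05, which makes 39 in all, and DESeq2 also counted 26 as lower and 0 as higher. The log2 fold change was negative in 70 of the 83 members. Its median was -0.14, against 0.02 over all genes tested and -0.03 over genes of at least 10 CPM. In 24 of the 26 the 3 libraries of each group did not overlap, the exceptions being NDUFB3 and ATP5MK. Since the 26 were called from these same libraries, this adds no further support, and its share over all genes was not counted. In bulk RNA such as this, fewer cells of a type and less RNA per cell cannot be told apart.

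Counts differed among the complexes. In complex I 6 of 36 subunits fell (median log2 fold change -0.09), in complex II 1 of 4 (-0.01), in complex III 4 of 10 (-0.23), in complex IV 7 of 14 (-0.20) and in complex V 8 of 19 (-0.22). No test of the difference between complexes was made.

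**Figure D1:**
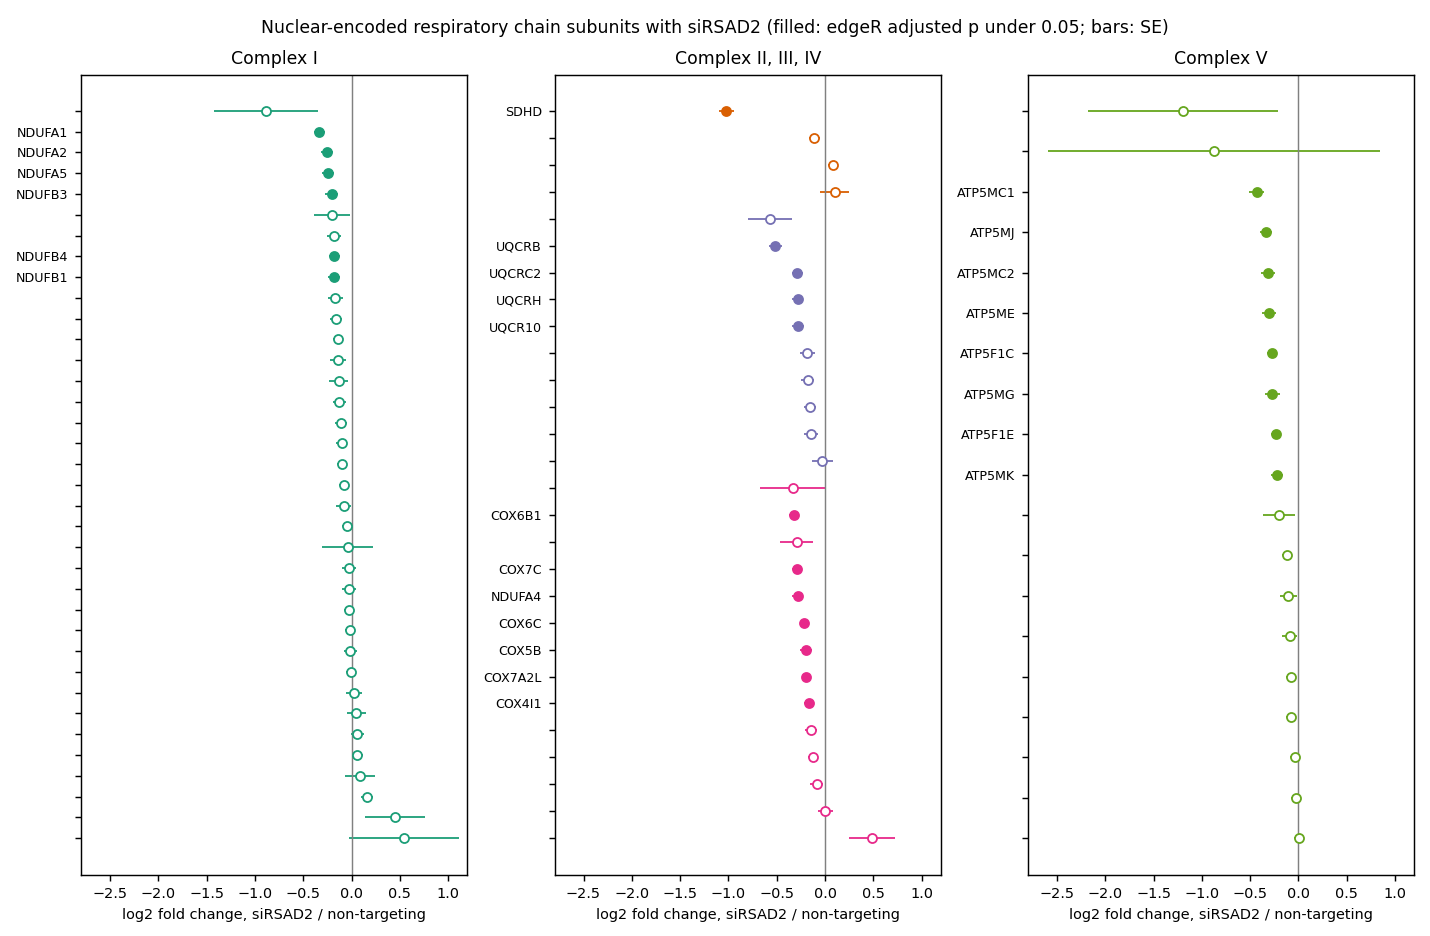
Log2 fold change of each of the 83 subunit genes in siRSAD2 cells over siNT cells, both with empty vector and vehicle, by complex, with the SE as bars (n = 3 libraries a group). Filled points, the ones named on the axis, passed an edgeR adjusted p of 0.05. All 26 filled points lie left of 0, and SDHD, at -1.02, lies farthest left among them.

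SDHD encodes the small membrane anchor of succinate dehydrogenase, the enzyme that oxidises succinate both in the citric acid cycle and as complex II. It lies at chr11:112086824-112120016 on the plus strand (hg38). SDHD stood at 26.7, 26.9 and 24.9 CPM in siRSAD2 cells, against 54.2, 50.6 and 54.6 CPM in siNT cells. The values of each group lie close together and the groups are far apart. The fall was -1.02 ± 0.07 (edgeR adjusted p = 7.79e-12), 0.493-fold. The remaining siRSAD2 groups stayed in the same low range, with 26.5, 32.7 and 30.04 CPM with H1047R and insulin, 30.5, 29.8 and 30.9 CPM with H1047R and vehicle and 27.1, 24.2 and 29.9 CPM with empty vector and insulin, so that none of the 12 siRSAD2 libraries reached the lowest siNT library.

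None of the other 3 complex II genes passed. SDHA, the flavoprotein that binds succinate, was at 5.91, 7.42 and 5.31 CPM in siRSAD2 cells, against 5.90, 5.32 and 6.14 CPM in siNT cells. SDHA shares 69.4% of its canonical exon bases with another gene. Reads from those bases could not be counted for SDHA, and its log2 fold change was 0.10 ± 0.15. SDHB, the iron-sulfur subunit, was at 78.2, 77.6 and 81.4 CPM in siRSAD2 cells, against 85.8, 85.6 and 84.5 CPM in siNT cells. These SDHB groups did not overlap, but the difference of -0.11 ± 0.05 (edgeR adjusted p = 0.176) did not pass. SDHC, the large membrane anchor and partner of SDHD, was at 96.04, 93.2 and 100.1 CPM in siRSAD2 cells, against 91.8, 93.3 and 87.7 CPM in siNT cells, with overlapping ranges and a log2 fold change of 0.08 ± 0.05. Summed over complex II without SDHD, the level was 182 ± 4.50 CPM in siRSAD2 cells and 182 ± 3.22 CPM in siNT cells (SD, n = 3 each). SDHD was left out because of its fall in these same libraries, so this sum only describes the other complex II genes. SDHD itself shares 23.8% of its canonical exon bases with an unnamed same-strand gene model, which received 0 reads over all libraries. Reads from the shared bases count for neither gene, so this 0 does not show whether SDHD lost reads there. TIMM8B, the divergent neighbour whose start lies next to that of SDHD, was looked up after the SDHD values were known: it was at 36.8, 42.4 and 42.1 CPM in siRSAD2 cells, against 39.9, 46.5 and 45.3 CPM in siNT cells, with a change of -0.12 ± 0.08 (edgeR adjusted p = 0.324) and overlapping groups.

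Since SDHD carries the largest fall that passed among the members, part of its promoter is shown, from 128 to 53 bases before its RefSeq start (GRCh38.p14, chr11:112086745-112086820, plus strand). Capitals mark a match to the NRF1 letters (GCGCA, any base, GCGC) and, after it, a match to the ETS core CCGGAAG read on the minus strand.
SDHD: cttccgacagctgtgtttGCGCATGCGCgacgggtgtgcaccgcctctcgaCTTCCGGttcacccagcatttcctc

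In complex III, the cytochrome bc1 complex, UQCRB fell most among the genes that passed. UQCRB, a small subunit near the ubiquinone site, was at 207, 212 and 217 CPM in siRSAD2 cells, against 285, 320.0 and 305 CPM in siNT cells. There was a clear gap between the groups, and the change was -0.52 ± 0.07 (edgeR adjusted p = 8.65e-07). UQCRH was at 95.5, 96.1 and 93.9 CPM in siRSAD2 cells, against 109, 123 and 115 CPM in siNT cells, a change of -0.28 ± 0.06 (edgeR adjusted p = 3.02e-04). UQCRC2, a core protein of the matrix arm, was at 45.8, 46.1 and 45.6 CPM in siRSAD2 cells, against 52.8, 56.99 and 58.1 CPM in siNT cells, a change of -0.29 ± 0.06 (edgeR adjusted p = 3.63e-04). Neither UQCRH nor UQCRC2 overlapped between these groups. UQCR10 also fell (-0.28 ± 0.06). The Rieske iron-sulfur protein UQCRFS1, cytochrome c1 (CYC1), the core protein UQCRC1 and UQCRQ had log2 fold changes of -0.18, -0.14, -0.15 and -0.18 that did not pass, although their groups did not overlap.

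In complex IV, cytochrome c oxidase, the genes that fell encode small subunits around a catalytic core that mitochondrial DNA encodes. COX6B1, which faces the intermembrane space, was at 110.0, 119.9 and 121 CPM in siRSAD2 cells, against 149, 149 and 142 CPM in siNT cells, a change of -0.32 ± 0.05 (edgeR adjusted p = 3.07e-05). COX7C was at 132, 142 and 140.0 CPM in siRSAD2 cells, against 166, 175 and 164 CPM in siNT cells, a change of -0.29 ± 0.05 (edgeR adjusted p = 5.82e-05). NDUFA4 was at 102, 110.4 and 121 CPM in siRSAD2 cells, against 133, 143 and 129 CPM in siNT cells, a change of -0.28 ± 0.06 (edgeR adjusted p = 2.88e-04). Every siRSAD2 library was below every siNT library for these 3 genes, also with insulin or H1047R. COX4I1, COX5B, COX6C and COX7A2L fell by less, with log2 fold changes of -0.17, -0.20, -0.21 and -0.20. COX5A, the partner of COX4I1 in early assembly, was at 0.00 ± 0.08 and did not pass.

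In complex V, ATP synthase, 8 genes of the membrane part and the central stalk fell. ATP5MC1, a source of the rotor c subunit, was at 25.96, 32.5 and 29.2 CPM in siRSAD2 cells, against 39.97, 38.6 and 39.8 CPM in siNT cells, a change of -0.43 ± 0.07 (edgeR adjusted p = 5.64e-05). ATP5MC2 also fell (-0.32 ± 0.07), while ATP5MC3 was at -0.12 ± 0.05 and did not pass. ATP5MJ, a small membrane subunit, was at 43.2, 49.7 and 50.9 CPM in siRSAD2 cells, against 58.6, 63.3 and 59.3 CPM in siNT cells, a change of -0.33 ± 0.06 (edgeR adjusted p = 2.50e-04). ATP5F1C, the gamma subunit of the central stalk, was at 139, 141 and 156 CPM in siRSAD2 cells, against 168, 181 and 179.6 CPM in siNT cells, a change of -0.27 ± 0.05 (edgeR adjusted p = 7.57e-05). These 3 genes showed no overlap between the groups. ATP5ME, ATP5MG and ATP5MK of the membrane part and ATP5F1E, the epsilon subunit of the central stalk, fell too, with log2 fold changes of -0.31 ± 0.07, -0.27 ± 0.08, -0.22 ± 0.06 and -0.23 ± 0.05. In the catalytic ring ATP5F1A was at 0.00 ± 0.05 and ATP5F1B at -0.03 ± 0.05, neither past the threshold.

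In complex I, the largest complex, the 6 genes that fell are accessory subunits that surround the catalytic core. NDUFA1, needed for assembly of the membrane arm, was at 78.9, 87.99 and 86.2 CPM in siRSAD2 cells, against 101, 114 and 105 CPM in siNT cells, a change of -0.33 ± 0.06 (edgeR adjusted p = 3.88e-05). NDUFA5 was at 86.1, 82.9 and 79.4 CPM in siRSAD2 cells, against 96.1, 102 and 95.9 CPM in siNT cells, a change of -0.24 ± 0.06 (edgeR adjusted p = 0.00376). NDUFA2 was at 55.8, 62.4 and 63.6 CPM in siRSAD2 cells, against 72.2, 72.6 and 71.96 CPM in siNT cells, a change of -0.25 ± 0.07 (edgeR adjusted p = 0.00528). These 3 genes did not overlap between the groups. NDUFB1, NDUFB3 and NDUFB4 of the membrane arm fell as well, with log2 fold changes of -0.18 ± 0.06, -0.21 ± 0.07 and -0.18 ± 0.06. Among core subunits of the peripheral arm, NDUFS1, NDUFS3, NDUFS7, NDUFS8, NDUFV1 and NDUFV2 had log2 fold changes of -0.08, -0.03, -0.17, -0.14, -0.14 and -0.89, none past the threshold. NDUFV2, which shares 90.0% of its canonical exon bases, was counted at only 0.172 to 0.575 CPM.

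**Figure D2:**
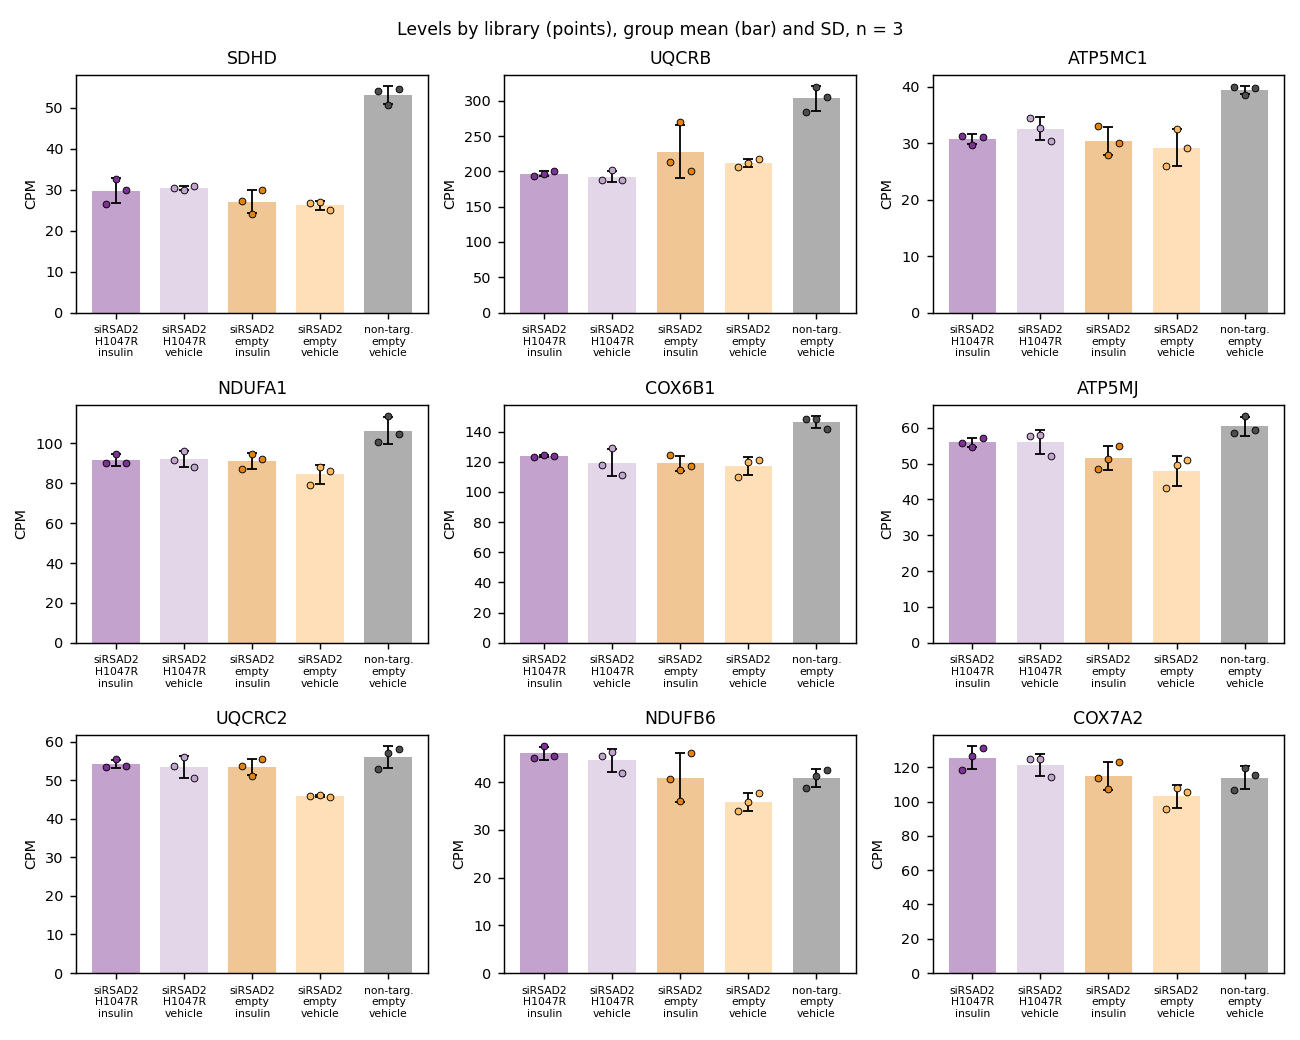
CPM of 9 subunit genes in each library (points), with the group mean (bars) and SD (n = 3), for the 4 siRSAD2 groups and the siNT group at the right. For SDHD, UQCRB, ATP5MC1, NDUFA1, COX6B1 and ATP5MJ all 12 siRSAD2 points lie below all 3 siNT points, and UQCRC2 is lowest in siRSAD2 cells with empty vector and vehicle, at 45.6 to 46.1 CPM.

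The 26 genes differed in how far their low level extended to the other siRSAD2 groups. For 14 of the 26 all 12 siRSAD2 libraries lay below all 3 siNT libraries, and for UQCRC2, NDUFB3 and ATP5MK this held in only 5, 3 and 3 of the 12. Those 12 libraries include the 3 that made the call, and H1047R and insulin have no siNT counterpart, so no test was made on the others. How often all 12 lay below all 3 siNT libraries among all genes that fell was not counted. The count of 14 of 26 may therefore not be particular to the subunits. At the threshold of 0.05, a set of 15 of the 26 fell in the reported fit and in each of 24 fits with other settings or fewer libraries: SDHD, UQCRB, UQCRH, UQCRC2, COX6B1, COX7C, COX7A2L, NDUFA4, NDUFA1, NDUFA5, ATP5MC1, ATP5MC2, ATP5MJ, ATP5F1C and ATP5F1E. NDUFB1 was the least stable, with 7 of 24.

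Summing CPM over the members of a complex gives the same direction with the weight on abundant genes. Complex III summed to 816 ± 27.9 CPM in siRSAD2 cells and 1000.4 ± 29.0 CPM in siNT cells, a change of -18.4% that is -13.3% without UQCRB. Complex IV summed to 1134 ± 41.4 CPM in siRSAD2 cells and 1304 ± 39.6 CPM in siNT cells (-13.0%). Complex II came to 208 ± 3.42 CPM in siRSAD2 cells and 235 ± 2.44 CPM in siNT cells (-11.6%), against 182 CPM in both without SDHD. Complex V summed to 2279 ± 112 CPM in siRSAD2 cells and 2464 ± 47.9 CPM in siNT cells (-7.50%). Complex I summed to 1912 ± 60.5 CPM in siRSAD2 cells and 2047 ± 42.7 CPM in siNT cells (-6.60%). All are SD with n = 3. The groups did not overlap for any of the 5 complexes, and each exact two-sided permutation p was 0.1, the smallest that 3 libraries against 3 allow.

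**Figure D3:**
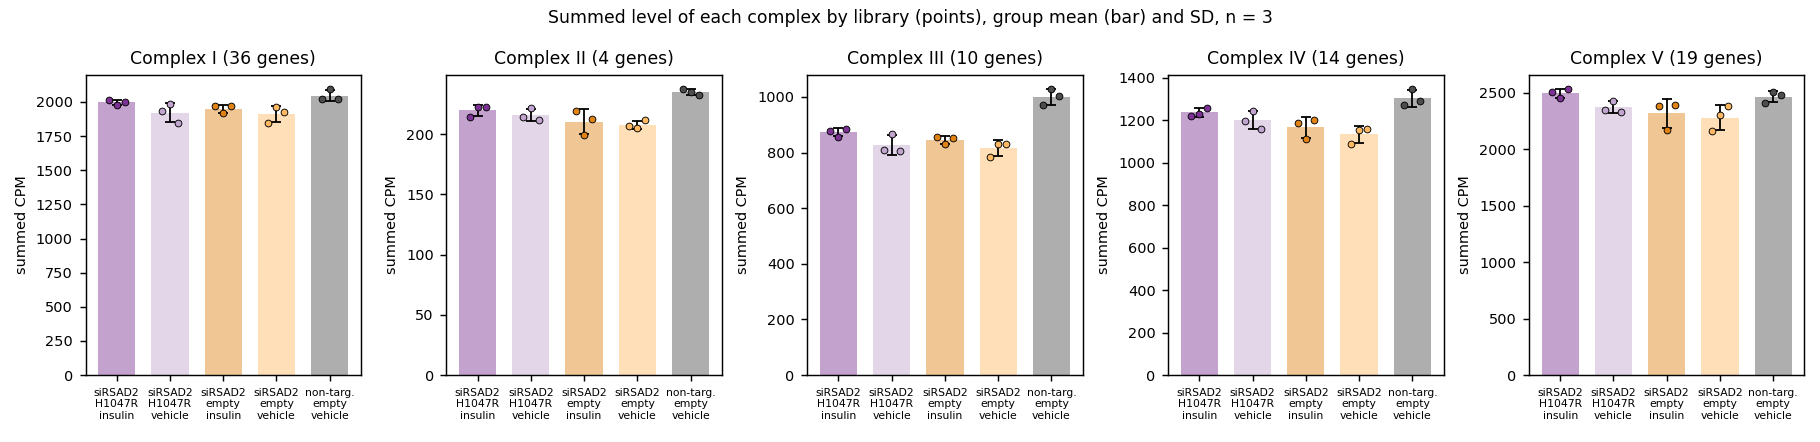
Summed CPM of the members of each complex in each library (points), with the group mean (bars) and SD (n = 3), for the 4 siRSAD2 groups and the siNT group at the right. Complexes III and IV show the widest gaps between siRSAD2 and siNT cells with empty vector and vehicle, -18.4% and -13.0%.

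Promoter letters known to be bound by regulators of these genes were then counted. RefSeq promoters (GRCh38.p14, 250 bases before to 50 after the start) were found for 65 of the 83 members and for 23 of the 26 that fell. Searched on both strands, the NRF1 letters, GCGCA followed by any base and GCGC, occurred in 16 of 65 (24.6%), beside 10.5% of 11889 tested protein-coding genes and 6.28% of all 27305 promoters of the same length. The ETS core CCGGAAG, bound by GABPA among others, occurred in 20 of 65 (30.8%), beside 17.4% of tested protein-coding genes and 10.7% of all promoters. The YY1 letters AAGATGGC occurred in 11 of 65 (16.9%), beside 4.84% of tested protein-coding genes and 3.03% of all promoters. At least 1 of the 3 was found in 38 of 65 (58.5%), beside 28.8% of tested protein-coding genes and 17.9% of all promoters, and the 3 motifs share no letters that would make 1 match count as another. Among the 23 members that fell, 6 had the NRF1 letters, 9 the ETS core and 0 the YY1 letters, against 10, 11 and 11 of the 42 other members. A match is a description of letters and no evidence of binding, and the absence of a match says only that these letters are not in the window.

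Stretches around a match are shown for 5 members that fell, 2 with the NRF1 letters and 3 with the ETS core, with 18 bases on either side and the match in capitals (5′ to 3′ on the gene's strand, RefSeq, GRCh38.p14). ATP5ME lies at chr4:674468-674513 on the minus strand, NDUFB4 at chr3:120596255-120596300 on the plus strand, NDUFA1 at chrX:119871767-119871809 on the plus strand, UQCRH at chr1:46303634-46303676 on the plus strand and COX5B at chr2:97646007-97646049 on the plus strand. In NDUFA1 and UQCRH the ETS core is on the opposite strand and so reads CTTCCGG.
ATP5ME: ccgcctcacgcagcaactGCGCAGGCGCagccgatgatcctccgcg
NDUFB4: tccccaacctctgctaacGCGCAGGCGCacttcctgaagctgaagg
NDUFA1: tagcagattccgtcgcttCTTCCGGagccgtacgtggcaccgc
UQCRH: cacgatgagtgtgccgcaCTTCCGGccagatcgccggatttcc
COX5B: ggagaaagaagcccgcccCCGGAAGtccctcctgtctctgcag
The log2 fold changes of these genes with siRSAD2 were -0.31, -0.18, -0.33, -0.28 and -0.20. Of the regulators themselves, GABPA (-0.41 ± 0.08) and YY1 (-0.30 ± 0.04) fell with siRSAD2, and NRF1 did not pass (-0.10 ± 0.08). Whether these changes bear on the subunits was not tested.

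Lists of other genes around the respiratory chain were counted in the same way, beside the 9.72% of all genes that fell and the 20.7% of genes of at least 10 CPM. The shares that rose were 9.82% and 13.6%. Of the 13 subunits encoded by mitochondrial DNA, 3 rose with siRSAD2 and 0 fell (median log2 fold change 0.20): MT-CO1 (0.27 ± 0.09), MT-ATP8 (0.26 ± 0.08) and MT-ND4L (0.26 ± 0.08). MT-ATP8 overlaps MT-ATP6 and MT-ND4L overlaps MT-ND4, so their counts are partial. Among 63 assembly factors 9 fell (14.3%) and 0 rose, including ATPAF2 (-0.49 ± 0.08), a chaperone for the F1 part of ATP synthase, and TMEM126B (-0.27 ± 0.06), a complex I assembly factor. Of 21 regulators of mitochondrial biogenesis and mitochondrial DNA expression 3 fell (14.3%), the third being the nuclease MGME1 (-0.19 ± 0.05), and the coactivator PPRC1 rose (0.19 ± 0.06). Of 22 genes for electron carriers 1 fell (4.55%) and 1 rose: ETFDH, which feeds electrons from fatty acid oxidation to ubiquinone, fell (-0.53 ± 0.07) and COQ10A rose (0.31 ± 0.09). In the pyruvate dehydrogenase and citric acid cycle list 5 of 18 fell (27.8%) and 2 rose, with SUCLG2 at -0.36 ± 0.06 and IDH2 at 0.46 ± 0.05. In glycolysis 2 of 20 fell (10%) and 2 rose, with ENO1 at -0.25 ± 0.04 and ALDOC at 0.76 ± 0.11.

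Ribosomal protein genes of the cytosol and of mitochondria were described beside the subunits. Of 81 cytosolic ribosomal protein genes 59 fell with siRSAD2 (72.8%) and 1 rose, with a median of -0.23, led by RPS27A (-1.05 ± 0.07) and RPS23 (-0.56 ± 0.05). Of 77 mitochondrial ribosomal protein genes 11 fell (14.3%) and 1 rose, with a median of -0.09, led by MRPL18 (-0.98 ± 0.06) and MRPL50 (-0.43 ± 0.07). With an offset that removes the trend of fold change with canonical transcript length, 21 members still fell, 20 of them among the 26. The groups of this comparison were alike in forward-strand share, at 5.81 to 5.88% in siRSAD2 libraries and 5.85 to 5.87% in siNT libraries. Stromal markers moved too, with 7 of 9 lower and 2 higher, as did 4 of 9 epithelial markers, all lower, among them KRT8 (-0.34 ± 0.05) and KRT7 (-0.50 ± 0.07). Their summed level was 7112 to 7219 CPM in siRSAD2 libraries and 7349 to 7721 CPM in siNT libraries for stromal genes, and 1896 to 2032 CPM in siRSAD2 libraries and 2270 to 2304 CPM in siNT libraries for epithelial genes. Their part in the subunit result was not tested.

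Insulin was compared with vehicle in siRSAD2 cells under each vector, to ask whether the hormone shifts the subunits when RSAD2 is knocked down. The empty-vector vehicle libraries are the same ones that stood against siNT. With empty vector 1 of 83 members rose, beside 2.1% of all genes, and 0 fell, beside 4.19% of all genes. An unadjusted p under 0.05 was reached by 15 members, DESeq2 called 2, and the median log2 fold change was 0.04, against 0.00 over all genes. The gene that rose was UQCRC2, at 53.8, 51.1 and 55.4 CPM with insulin, against 45.8, 46.1 and 45.6 CPM with vehicle. All insulin libraries were above all vehicle libraries, and the change was 0.22 ± 0.06 (edgeR adjusted p = 0.0186). Without siRSAD2 empty-vector insulin library 3, or without any 1 of the 3 vehicle libraries, UQCRC2 no longer passed.

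With H1047R no subunit passed. Of the 83 members 0 rose, beside 0.483% of all genes, and 0 fell, beside 1.99%. An unadjusted p under 0.05 was reached by 6, DESeq2 called 1, and 63 of 83 log2 fold changes were positive, with a median of 0.05. The summed level of complex V was 2496 ± 38.7 CPM with insulin and 2371 ± 52.4 CPM with vehicle (SD, n = 3 each), a difference of 5.26% without overlap and with an exact two-sided permutation p of 0.1. The sums of the other complexes overlapped. The interaction of insulin and H1047R passed in 0 of 83 members, as in 0% of all genes, with 8 members at an unadjusted p under 0.05 and 0 by DESeq2.

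Averaged over both vectors, insulin raised 3 members (3.61%), beside 3.15% of all genes, and lowered 0, beside 5.22%. Among genes of at least 10 CPM 5.87% rose and 11.1% fell. The share of members that rose was thus near that of all genes and below that of genes of at least 10 CPM. The 3 members were NDUFB9, an accessory subunit of complex I (0.15 ± 0.04, edgeR adjusted p = 0.00943), ATP5PB, the b subunit of the peripheral stalk (0.11 ± 0.03, edgeR adjusted p = 0.0245), and ATP5MG, the g subunit of the membrane part (0.18 ± 0.06, edgeR adjusted p = 0.0394). ATP5PB was at 180.1, 186 and 191 CPM with H1047R and insulin, against 165, 175 and 169 CPM with H1047R and vehicle. With empty vector it was at 185, 179 and 190.2 CPM with insulin, against 169, 175 and 176 CPM with vehicle. Insulin libraries were the higher ones under both vectors, by small steps. Among mitochondrial ribosomal protein genes in the same average there were 11 of 77 higher and 1 lower, among them MRPS9 (0.24 ± 0.04) and MRPL1 (0.29 ± 0.05). With empty vector alone insulin also raised 5 of 63 assembly factors (7.94%), including COX19 (0.30 ± 0.08) and TMEM126A (0.29 ± 0.08). It raised 2 of 22 electron carrier genes (9.09%), the ubiquinone methyltransferase COQ3 (0.39 ± 0.09) and cytochrome c, CYCS (0.22 ± 0.06). Beside them, 2.1% of all genes and 3.79% of genes of at least 10 CPM rose. With H1047R insulin moved 0 of the 63 assembly factors and 0 of the 22 electron carrier genes past the threshold. Averaged over both vectors, 4 assembly factors rose and 1 fell, and 2 electron carrier genes rose and 1 fell.

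PIK3CA H1047R was compared with empty vector in siRSAD2 cells under each treatment, to ask what the activated kinase does to the subunits. With vehicle 4 members rose, beside 0.621% of all genes, and 0 fell, beside 0.742%, and 27 had an unadjusted p under 0.05. DESeq2 counted 4 as higher and 1 as lower. NDUFB6, a membrane-arm subunit of complex I, was at 45.5, 46.3 and 41.9 CPM with H1047R, against 34.1, 35.8 and 37.8 CPM with empty vector, a change of 0.32 ± 0.07 (edgeR adjusted p = 0.0214). COX7A2 was at 125, 125 and 114 CPM with H1047R, against 95.5, 108 and 106 CPM with empty vector, a change of 0.24 ± 0.06 (edgeR adjusted p = 0.0367). NDUFB2 was at 55.5, 54.3 and 55.1 CPM with H1047R, against 45.2, 48.3 and 47.2 CPM with empty vector, a change of 0.23 ± 0.06 (edgeR adjusted p = 0.0469). In all 3 the lowest H1047R library was above the highest empty-vector library. UQCRC2, at 53.6, 56.04 and 50.4 CPM with H1047R against 45.8, 46.1 and 45.6 CPM with empty vector, was the fourth (0.22 ± 0.06, edgeR adjusted p = 0.0434). UQCRC2 thus rested in both the insulin and the H1047R comparison on the same 3 empty-vector vehicle libraries, whose values lie within 1 CPM of each other.

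With insulin 0 members rose with H1047R, beside 0.22% of all genes, and 0 fell, beside 0.0647%. An unadjusted p under 0.05 was reached by 26 members, DESeq2 called 3, and 69 of 83 log2 fold changes were positive, with a median of 0.08. The sums of complexes I, IV and V did not overlap between H1047R and empty vector, with differences of 2.37%, 6.03% and 7.69% and an exact two-sided permutation p of 0.1 each. The count of 0 depended on siRSAD2 empty-vector insulin library 3: without it 13 members rose and 2 fell.

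**Figure D4:**
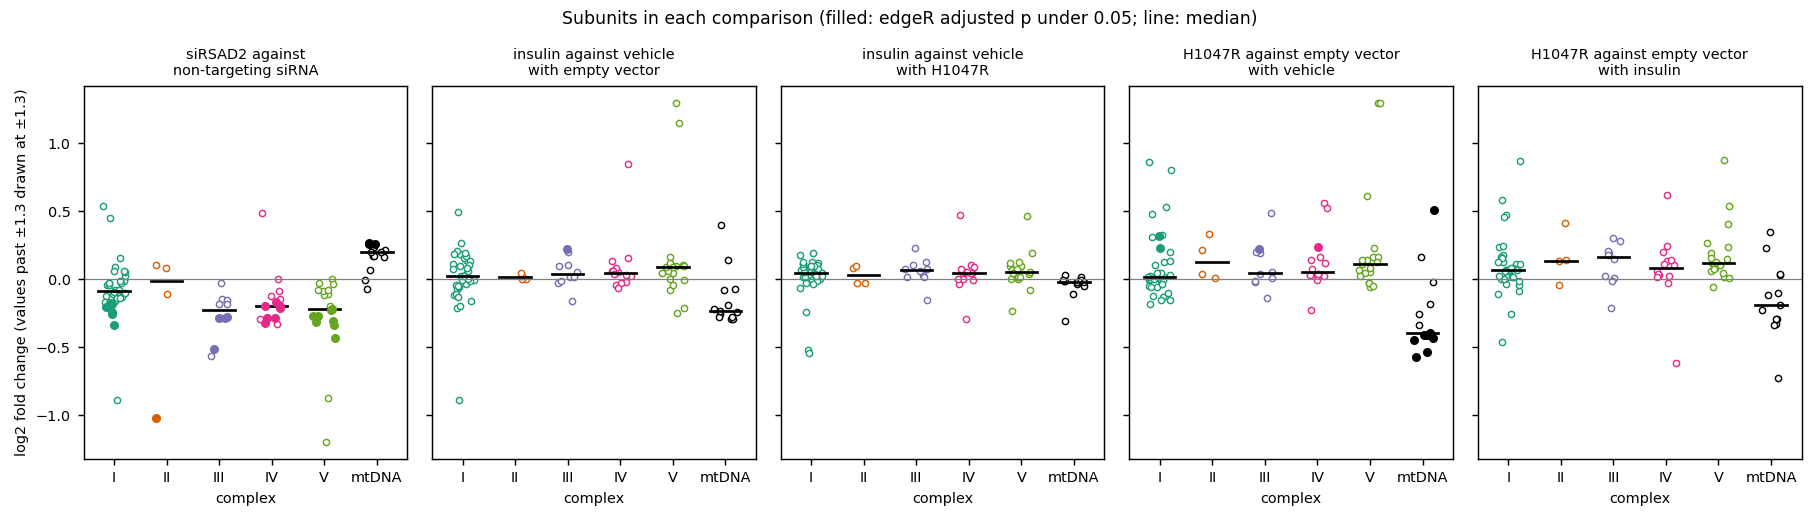
Log2 fold changes of the members by complex, and of the 13 subunits encoded by mitochondrial DNA (mtDNA), in the 5 comparisons of 2 groups. Filled points passed an edgeR adjusted p of 0.05, bars are medians and values past 1.3 are drawn at the edge. Of nuclear-encoded members 26 passed with siRSAD2, all lower, and 1, 0, 4 and 0 passed in the other 4 comparisons, all higher, while 7 mtDNA-encoded subunits were lower with H1047R and vehicle.

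Averaged over both treatments 15 members rose with H1047R, beside 1.47% of all genes, and 2 fell, beside 1.25%. Those that rose span all 5 complexes: NDUFA2, NDUFA9, NDUFA11, NDUFB2, NDUFB6 and NDUFB8 of complex I, SDHA, UQCRQ, COX7A2, COX7C and COX8A, and ATP5F1D, ATP5F1E, ATP5MJ and ATP5PO of complex V. The largest changes were those of NDUFB8 (0.72 ± 0.18, edgeR adjusted p = 0.0202), COX8A (0.59 ± 0.12, edgeR adjusted p = 0.00541) and ATP5PO, a peripheral stalk subunit (0.57 ± 0.12, edgeR adjusted p = 0.00477). The genes that fell were NDUFA5 (-0.20 ± 0.04, edgeR adjusted p = 0.00698) and UQCRB (-0.18 ± 0.05, edgeR adjusted p = 0.042), both of which had also fallen with siRSAD2. UQCRB was at 194, 196 and 200.4 CPM with H1047R and insulin, against 213, 270.3 and 200.1 CPM with empty vector and insulin, where the second empty-vector library stood apart. Without that library the averaged change was -0.11 and did not pass (edgeR adjusted p = 0.0751), nor did it pass without any 1 of 8 other libraries.

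Exon sharing and the forward-strand share were set beside these rises, and their part in them was not tested. Reads from exon bases that 2 genes on the same strand share were not counted for either gene. NDUFB8, SDHA, NDUFA11, ATP5PO, COX8A and NDUFA9 share 72.0%, 69.4%, 68.2%, 63.8%, 35.4% and 11.7% of their canonical exon bases. Of the 17 members that share more than 10%, 6 rose and 0 fell, with a median log2 fold change of 0.37. Of the 66 others, 9 rose and 2 fell, with a median of 0.04. NDUFB8 was at 3.97, 3.15 and 3.89 CPM with H1047R and insulin, against 2.16, 1.25 and 4.29 CPM with empty vector and insulin. The third of these empty-vector libraries, the one with a forward-strand share of 6.17%, thus lay above all 3 H1047R libraries. ATP5PO was at 17.2, 19.4 and 18.4 CPM with H1047R and insulin, against 11.9, 7.60 and 19.4 CPM with empty vector and insulin, with the third empty-vector library again at the level of the H1047R libraries. That library lay above all other empty-vector siRSAD2 libraries in 32 of all 83 members and in 12 of the 15 that rose, which were called from a comparison that includes it. How often it did so over all genes was not counted, so the count may describe the library rather than the subunits. Set against that library alone, with no test since it is 1 library, the insulin-treated H1047R libraries gave log2 fold changes of -0.21 to 0.23 for the 15 genes, against 0.12 to 0.62 over all 3 empty-vector insulin libraries. Among the genes with little exon sharing, ATP5F1D stood at 0.23, ATP5F1E at 0.13 and COX7C at 0.11 against that library, and NDUFB6 at -0.01. Of the genes with more sharing, COX8A stood at 0.20, NDUFA11 at 0.01 and NDUFB8 at -0.21. Of the genes that fell, NDUFA5 stood at -0.21 and UQCRB at -0.02. With vehicle every H1047R library had the higher forward-strand share and every empty-vector library the lower one, so H1047R and this library property cannot be told apart there.

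**Figure D5:**
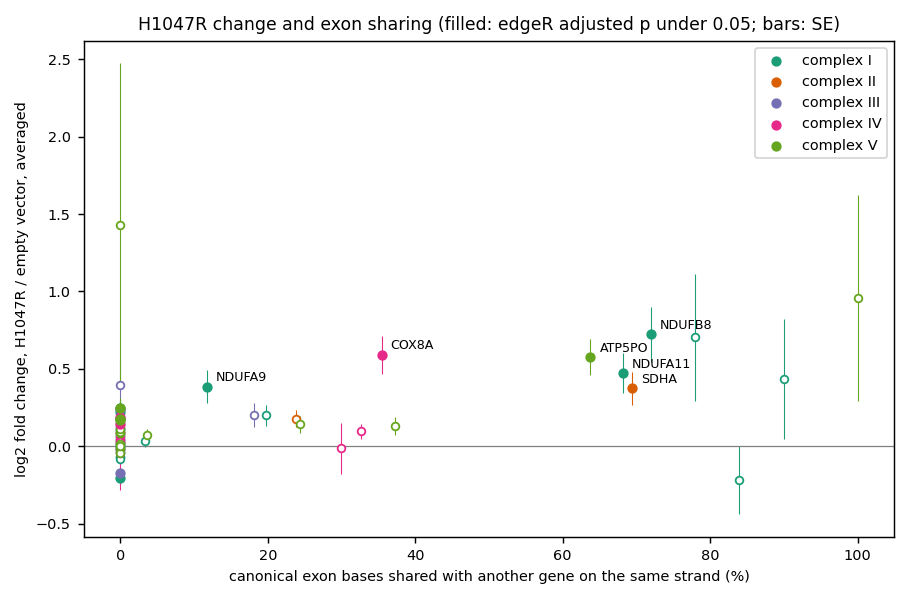
Log2 fold change of each member with H1047R over empty vector, averaged over both treatments (y axis, SE as bars, n = 6 libraries a side), against the share of its canonical exon bases that lie in another gene on the same strand (x axis, %). Filled points passed an edgeR adjusted p of 0.05, and the named ones are the 6 genes that rose and share more than 10%.

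The subunits encoded by mitochondrial DNA had 8 of 13 lower and 2 higher in this average. Beside them, 1.25% of all genes were lower and 1.47% higher, or 2.77% and 2.31% of genes of at least 10 CPM. With vehicle alone 7 of 13 fell with H1047R and MT-ATP8 rose (0.51 ± 0.08). There, 0.742% of all genes fell and 0.621% rose, or 1.29% and 1.00% of genes of at least 10 CPM. With insulin alone edgeR called 0 of 13 in either direction, with 8 at an unadjusted p under 0.05 and a median log2 fold change of -0.19, against -0.39 with vehicle. MT-ND2, a complex I core subunit, was at 1363, 1542 and 1587 CPM with H1047R, against 2307, 2235 and 2126 CPM with empty vector, a change of -0.57 ± 0.11. With insulin it was at 1709, 1265 and 1368 CPM with H1047R, against 1868, 2248 and 1327 CPM with empty vector, where the third empty-vector library again lay among the H1047R libraries. The part of that library in this difference was not tested.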

How the data were processed

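Paired reads were trimmed with Trim Galore and cutadapt and mapped by STAR on hg38, and the authors deposited its raw gene counts per library. Tool versions are not given in the sources used here, and their methods name an annotation release numbered like a mouse release although the identifiers are human. The deposited reverse-strand counts were used. Symbols of 60357 of 60617 identifiers came from GENCODE release 44. Unmapped, multimapping and ambiguous reads, and reads that matched no exon on the counted strand, were kept out of library sizes. They made up 22.2 to 30.5% of read pairs.

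Genes that averaged 1 count or more over the libraries entered 1 edgeR 4.0.16 fit (R 4.3.3) over all 15 libraries with a term per group, TMM factors and 10 residual degrees of freedom (common biological coefficient of variation 0.0571), and p-values were adjusted over all 23184 genes. The fit was tested on simulated data. Alternatives were DESeq2 1.42.0, RLE factors, other filters, unstranded counts, fewer groups, a replicate block, a length trend offset and libraries left out. The removal of siRSAD2 empty-vector vehicle library 3 and insulin library 2 together, the fit within libraries of a forward-strand share above 6%, the 12 siRSAD2 libraries without a block and the canonical-length offset were added after seeing the data, as was the choice of canonical over merged exon length for TPM. Exact permutation tests served for sums, although the plan had been to describe sums without a p. The sums without SDHD and without UQCRB leave out genes picked by their fall in these same libraries. Members and lists were chosen with earlier results of these data known. Named genes were RSAD2 and PIK3CA, up to 3 members per complex (lowest p past the threshold, 1 CPM or more, groups without overlap) in each comparison of 2 groups, the SDH subunits, isoform sets and the 2 leading genes of each list; other genes were named after their values were seen. The values of 1 member are not reported here.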

Additional observations from a re-analysis of the deposited data

How the results depend on the processing

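Among recomputed counts of members past the threshold, 147 stayed within 1.5 times the reported one and 68 did not. Of single-gene values 4263 kept direction and side of the threshold, 35 newly passed, 94 no longer passed and 1 reversed: COX8A with insulin and empty vector had a log2 fold change of 0.41 without siRSAD2 empty-vector vehicle library 3 and insulin library 2. With siRSAD2 26 members passed in the reported fit, 11 at an adjusted p of 0.001 and 19 to 34 when each library was left out in turn. Without siNT library 5, 19 passed, all of them among the 26. Without siRSAD2 empty-vector vehicle library 1, 20 passed, 19 of them among the 26, and NDUFA2 was among those lost. That library also moved the median to -0.09. For insulin with empty vector (1 reported) the counts were 0 at 0.001 and with only the groups compared, 2 with the edgeR filter, the merged-length offset and DESeq2, 4 with the canonical-length offset, 6 with no filter and 6 without both libraries named above, where the median was 0.09, and 0 to 4 with each library left out. For insulin with H1047R (0 reported) they were 1 with no filter, without both libraries and with DESeq2, 2 with only the groups compared, and 0 to 1 with each library left out. For H1047R with vehicle (4 reported) they were 0 at 0.001, 2 with RLE factors, 1 with the 12 siRSAD2 libraries, 9 with only the groups compared, 11 with no filter, 12 without both libraries, and 0 to 12 with each library left out. For H1047R with insulin (0 reported) they were 1 with unstranded counts and with each length offset, 3 with DESeq2, 11 with no filter, and 0 to 15 with each library left out; within libraries of a forward-strand share above 6%, of which 1 carried empty vector, the median was 0.03. The interaction stayed at 0 in every fit, and its median was 0.07 without siRSAD2 empty-vector insulin library 3. For insulin averaged over both vectors (3 reported) they were 0 at 0.001, 6 with the edgeR filter and DESeq2, 10 without both libraries, and 1 to 10 with each library left out. For H1047R averaged over both treatments (17 reported) they were 0 at 0.001, 11 with only the groups compared, with the 12 siRSAD2 libraries and without both libraries, and 6 to 21 with each library left out, the lowest without siRSAD2 empty-vector vehicle library 1, H1047R vehicle library 1 or H1047R insulin library 3. The causes were not tested.

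Replicate numbers showed no pairing across the siRSAD2 groups as a whole. Of 18 same-numbered pairs 2 had a correlation over 0.1 (range -0.13 to 0.16), and 6 of 12 siRSAD2 libraries correlated best with their own number. Between empty-vector insulin and H1047R insulin libraries, however, same-numbered pairs had correlations of 0.16, 0.14 and 0.09. Differently numbered pairs of these groups had -0.15 to -0.004, so pairing between them cannot be set aside. With the replicate number as a block the counts were 1 and 0 for insulin with empty vector and with H1047R, 3 and 0 for H1047R with vehicle and with insulin, 0 for the interaction, 1 for insulin averaged and 16 for H1047R averaged. No paired analysis was possible for siRSAD2 against siNT because these groups share no replicate number.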
